A study of Homo sapiens with 6 samples.

Results

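The miRNAs described here are miR-10a, miR-10b, miR-196a and miR-196b, whose genes lie inside the HOX clusters. They were chosen by the probe name (hsa-miR-10a, hsa-miR-10b, hsa-miR-196a and hsa-miR-196b), and all 4 names were found among the 1719 human probes, each with 1 spot per array. Of those 1719 probes 625 were tested, and the 4 miRNAs were among them.

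HOX genes are clustered transcription factor genes whose order along the chromosome matches the order in which they mark the head-to-tail axis of the embryo, and adult cells, kidney epithelium included, keep part of that pattern. The miR-10 and miR-196 genes sit between the HOX genes and tend to be expressed together with their neighbours. Both families repress HOX mRNAs: miR-196 directs cleavage of the HOXB8 mRNA, and miR-10b represses HOXD10 in human breast cancer cells. In the kidney, HOX genes take part in forming the metanephric kidney in the mouse, and miR-10a and miR-10b are abundant kidney miRNAs.

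By the RefSeq annotation of GRCh38.p14, MIR10A lay between HOXB4 and HOXB5 on chromosome 17, within the span of HOXB3. MIR10B lay between HOXD8 and HOXD4 on chromosome 2. MIR196A1 lay on chromosome 17 beyond HOXB9 and overlapped the long non-coding gene HOXB-AS4, and MIR196A2 lay on chromosome 12 between HOXC10 and HOXC9. MIR196B lay on chromosome 7 between HOXA9 and HOXA10 and overlapped HOXA10-AS and the read-through gene HOXA10-HOXA9. The deposited tables name no genome build, and the coordinates below belong to the RefSeq sequences.

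The mature sequences are shown because some of these miRNAs differ by a few letters, and because the seed (bases 2 to 8, in capitals) groups them into families. They are RefSeq sequences of GRCh38.p14, written 5′ to 3′. The mature miR-10b was missing from the RefSeq table used here, so it is not shown and was not compared with miR-10a. MiR-10a is at chr17:48579904-48579926 on the minus strand. MiR-196a is at chr17:48632532-48632553 on the minus strand (MIR196A1) and again at chr12:53991762-53991783 on the plus strand (MIR196A2). MiR-196b is at chr7:27169528-27169549 on the minus strand. The related miR-100 is at chr11:122152275-122152296 on the minus strand, and 1 of the let-7a copies is at chr9:94175962-94175983 on the plus strand.
miR-10a: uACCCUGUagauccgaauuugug
miR-196a: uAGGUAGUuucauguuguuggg
miR-196b: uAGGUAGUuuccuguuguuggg
miR-100: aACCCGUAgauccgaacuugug
let-7a: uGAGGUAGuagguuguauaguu
MiR-196a and miR-196b had the same seed, shared by no other mature miRNA in the RefSeq table, and differed by 1 substitution over 22 bases, A12C, with miR-196a first and positions counted from the 5′ end. MiR-10a and miR-100 had different seeds but shared a run of 11 bases, at bases 7 to 17 of miR-10a and 6 to 16 of miR-100. The seed of miR-196 was also present in let-7a, moved by 1 base to bases 3 to 9. How far the probes cross-react was not tested.

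The hairpins are shown because the same mature miR-196a comes from 2 loci, and because the array also carried probes for 3′ arms. The RefSeq table lists the 3′ arm miR-196a* for MIR196A2. Capitals mark the mature 5′ arm.
MIR10A: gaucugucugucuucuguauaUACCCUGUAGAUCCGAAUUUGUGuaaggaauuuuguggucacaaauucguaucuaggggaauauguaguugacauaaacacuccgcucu
MIR196A1: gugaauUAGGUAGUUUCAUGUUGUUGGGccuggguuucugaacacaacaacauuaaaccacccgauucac
MIR196A2: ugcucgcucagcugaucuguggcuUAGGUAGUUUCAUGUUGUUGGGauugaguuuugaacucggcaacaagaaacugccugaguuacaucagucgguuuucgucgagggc
MIR196B: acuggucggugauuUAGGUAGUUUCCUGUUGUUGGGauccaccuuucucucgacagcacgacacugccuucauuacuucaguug
The probe for miR-196a therefore could not separate the products of the HOXB and HOXC loci, and the share of each was not measured.

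The samples were 3 of HK-2 cells treated with aristolochic acid (AA) at 5 µg/ml for 48 h and 3 control samples without it, both in medium with 0.2% fetal calf serum. HK-2 is 1 immortalised line of human proximal tubule cells, which carries papillomavirus genes, and aristolochic acid, made by Aristolochia plants, binds to DNA and is toxic to proximal tubule cells. Whether the replicates are separate cultures is not stated in the labels. The p-values therefore cover the spread among these samples and nothing wider, and that spread may be technical. Because whole cultures were measured, fewer cells with a miRNA and less of it per cell cannot be told apart.

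The authors' criterion kept a signal for 647 to 873 human probes on an AA array and for 644 to 936 on a control array. The AA arrays were brighter. The background subtracted by the authors was 53.3 to 61.8 on AA arrays and 50.6 to 51.8 on control arrays, and the summed background-subtracted signal was 108515 to 120739 and 80088 to 101940. The lowest raw value kept was 57.2 to 66.7 on AA arrays and 53.3 to 54.2 on control arrays. In unscaled units it stood farther above the subtracted background on every AA array than on every control array. The AA arrays were also brighter, so this does not show that detection of dim probes was stricter on them. Without scaling, the median log2 difference over the 503 probes detected on every array was 0.45, or 1.37-fold, AA over control. Treatment and array brightness thus cannot be told apart in unscaled values. Of the 4 kidney tubule markers, every array detected miR-215, miR-194 and miR-192, while miR-204 was detected on 0 AA and 2 control arrays. The summed tubule signal was 92.6 to 117 on AA and 37.1 to 38.6 on control arrays. Of 6 epithelial markers 5 were detected on all 6 arrays, with sums of 413 to 465 and 287 to 332. Of 5 blood markers, miR-142-3p alone was detected on all 6 arrays, while miR-451 and miR-150 were detected on none. Their summed signal was 76.8 to 87.7 on AA and 53.3 to 66.9 on control arrays. For endothelium miR-126 was detected on all 6 arrays, for muscle miR-1 and miR-133a, and for neurons miR-9 but not miR-124. The summed signals on AA and control arrays were 7.65 to 13.4 and 6.29 to 8.99 for endothelium, 40.5 to 48.0 and 25.8 to 34.2 for muscle, and 12.6 to 16.9 and 10.2 to 12.4 for neurons. Liver miR-122 was detected on 2 AA and 1 control arrays. The part of these markers in the results below was not tested.

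No change of the HOX-cluster miRNAs with aristolochic acid was detected after quantile normalization. All 4 were detected on all 6 arrays, and 0 of the 4 passed the test in either direction, where 0.960% of the tested probes did (6 of 625, limma adjusted p under 0.05). None had an unadjusted limma p under 0.05, which 15.0% of the tested probes had. Their log2 differences, AA minus control, ran from -0.044 to 0.052 with a median of 0.031, beside a median of -0.011 over all tested probes. The model was fitted on log2 intensity after background correction with an offset of 50 and quantile normalization, and the offset makes differences of dim probes smaller. Scaled intensities are therefore given too: each array's background-subtracted values were multiplied by a constant that brings the median of the 503 probes to 25. On those values limma called 0.994% of the 503 probes and 0 of the 4 miRNAs. In normalized log2 intensity the groups did not overlap, with AA above, for 8.81% of probes and 0 of the 4 miRNAs, and in scaled intensity for 8.75% and 0 of 4. With AA below, it was 10.7% and 0 of 4 in normalized log2 intensity, and 14.1% and 1 of 4 (miR-196b) in scaled intensity.

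MiR-10a, encoded between HOXB4 and HOXB5, had background-subtracted intensities of 54.2, 44.9 and 31.4 in AA samples, against 21.3, 36.8 and 27.7 in control samples. In scaled intensity it had 61.6, 48.2 and 37.4 in AA samples and 32.7, 59.6 and 48.4 in control samples. The groups overlapped on both scales, and after scaling the lowest and the next to highest values were both control samples. The mean scaled intensity was 49.1 ± 12.1 in AA and 46.9 ± 13.5 in control samples (SD, n = 3 each). The log2 difference was 0.052 in limma (SE 0.097, adjusted p = 0.806). Without the offset it was 0.079, a 1.06-fold ratio of geometric means with a 95% interval of 0.690 to 1.62 from limma (exact permutation p = 0.8, 2-sided).

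MiR-10b, encoded next to HOXD4, had background-subtracted intensities of 52.2, 39.6 and 56.5 in AA samples, against 33.6, 42.4 and 29.5 in control samples. Its scaled intensities were 59.3, 42.5 and 67.3 in AA samples and 51.5, 68.5 and 51.6 in control samples. AA replicate 2 lay below all other arrays and control replicate 2 above them on the scaled values, so the groups overlapped. The mean was 56.4 ± 12.7 in AA and 57.2 ± 9.79 in control samples (SD, n = 3 each). The limma difference was 0.015 (SE 0.079, adjusted p = 0.937), and without the offset it was -0.034, or 0.977-fold, with a 95% interval of 0.693 to 1.38 (exact permutation p = 0.9).

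MiR-196a, encoded at both the HOXB and HOXC loci, had background-subtracted intensities of 26.5, 26.6 and 23.1 in AA samples, against 14.6, 15.6 and 16.01 in control samples. Here every AA array lay above every control array, as for 53.7% of the 503 probes without scaling. Its scaled intensities were 30.2, 28.6 and 27.5 in AA samples and 22.4, 25.2 and 27.996 in control samples, and control replicate 3 lay within the AA range. The mean was 28.8 ± 1.33 in AA and 25.2 ± 2.81 in control samples (SD, n = 3 each). The limma difference was 0.047 (SE 0.036, adjusted p = 0.585). Without the offset it was 0.20, or 1.15-fold, with a 95% interval of 0.902 to 1.46 (exact permutation p = 0.2).

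MiR-196b, from the HOXA locus, had background-subtracted intensities of 62.4, 63.8 and 56.2 in AA samples, against 47.5, 44.5 and 49.9 in control samples, again with every AA array above every control array. The order turned round after scaling, with 70.9, 68.5 and 66.9 in AA samples and 72.8, 72.02 and 87.3 in control samples. The AA samples were then all below the control samples, as for 14.1% of the 503 probes on that scale. The mean scaled intensity was 68.8 ± 2.05 in AA and 77.4 ± 8.59 in control samples (SD, n = 3 each), and the control mean was raised by replicate 3. The limma difference was -0.044 (SE 0.048, adjusted p = 0.725). Without the offset it was -0.16, or 0.892-fold, with a 95% interval of 0.705 to 1.13 (exact permutation p = 0.1, the smallest that 3 against 3 can give).

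**Figure D1:**
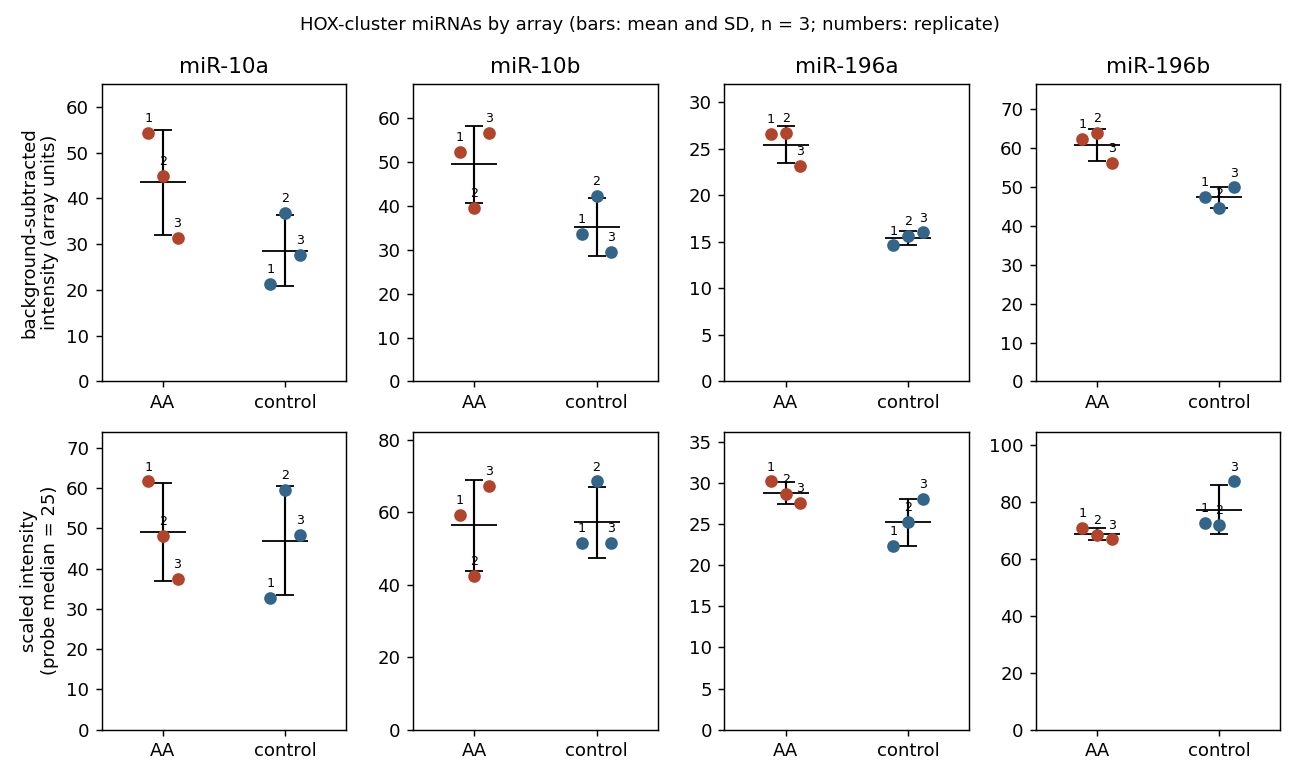
Background-subtracted intensity in array units (upper row) and scaled intensity (lower row) of miR-10a, miR-10b, miR-196a and miR-196b on each array, AA left of control. Points are arrays with their replicate number, and bars are the mean and SD of 3 arrays. All 4 miRNAs have a higher AA mean in the upper row, and in the lower row the AA points overlap the control points for all but miR-196b, whose AA points of 66.9 to 70.9 lie below the control points of 72.02 to 87.3.

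The 4 intervals without the offset all lie inside a 2-fold change in either direction. In unscaled background-subtracted intensity the ratios of geometric means were 1.52-fold for miR-10a, 1.41-fold for miR-10b, 1.65-fold for miR-196a and 1.28-fold for miR-196b, AA over control. These stand beside the 1.37-fold median of the 503 probes, whose middle 50% lay between 1.22-fold and 1.59-fold. MiR-10b and miR-10a were inside that middle range (54.7% and 66.6% of the probes were lower), miR-196b was inside it too (34.8% lower), and miR-196a was above it (81.7% lower).

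**Figure D2:**
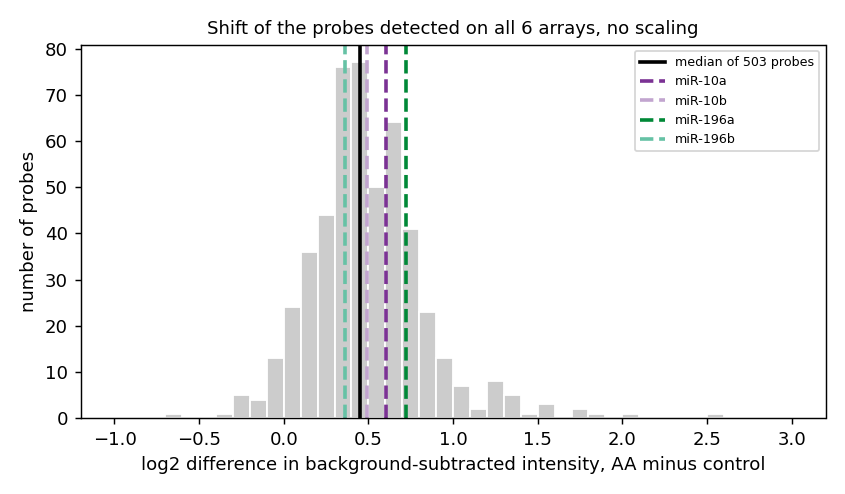
Histogram of the log2 difference in background-subtracted intensity without scaling, AA minus control, for the 503 probes detected on all 6 arrays, with the number of probes on the vertical axis. The solid line marks their median of 0.45, and dashed lines mark miR-196b at 0.36, miR-10b at 0.49, miR-10a at 0.60 and miR-196a at 0.72, all within the main body of the histogram.

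A ratio of the 2 miRNAs of a family on the same array does not depend on the scaling between arrays. Its absolute size depends on the probes and is not read here, only its difference between groups. The ratio of miR-196a to miR-196b, in background-subtracted intensity, was 0.425, 0.418 and 0.411 in AA samples and 0.307, 0.350 and 0.321 in control samples. All AA values lay above all control values, with little spread within the AA group. How many other pairs of probes separate the groups in this way was not counted. Unscaled log2 differences of the 503 probes themselves vary, with a middle 50% from 0.28 to 0.67, so the separation is not read as particular to this pair. The log2 difference was 0.36, so the ratio was 1.28 times higher in AA samples (exact permutation p = 0.1, 2-sided, the smallest possible, so the design cannot reach the threshold). With the offset of 50, which is added to both probes and draws any ratio of them towards 1, the ratios were 0.698, 0.687 and 0.707 in AA samples and 0.675, 0.705 and 0.676 in control samples. The groups then overlapped, and the AA ratio was 1.02 times the control ratio (exact permutation p = 0.3). With the median of the blank spots as the background the ratio was 1.28 times higher in AA samples, and with the mean of the negative control spots 1.33 times, with no overlap in either case. MiR-196a was the dimmer signal against background. Its raw intensity exceeded the lowest kept value by 18.9 to 22.8 on AA arrays and by 12.3 to 13.2 on control arrays, and the part of background error in the ratio beyond these alternatives was not tested.

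The ratio of miR-10a to miR-10b was 1.04, 1.13 and 0.556 in AA samples and 0.634, 0.869 and 0.939 in control samples. The groups overlapped, and AA replicate 3 was the lowest and AA replicate 2 the highest of all 6. The ratio was 1.08 times higher in AA samples (log2 difference 0.11, exact permutation p = 0.7). Its SD on the log2 scale was 0.56 in AA and 0.30 in control samples, against 0.023 and 0.095 for the miR-196 ratio.

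**Figure D3:**
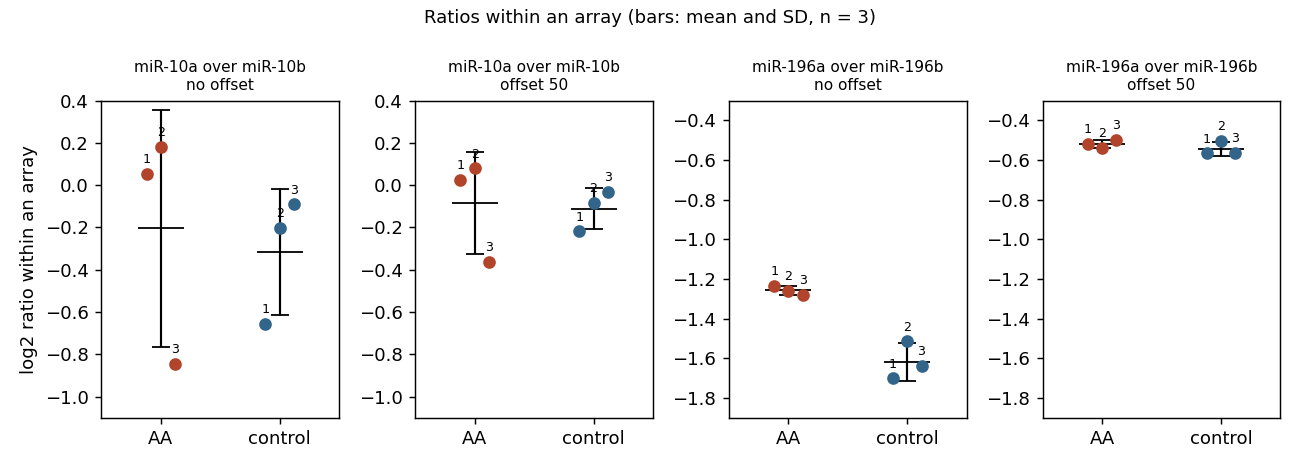
Log2 ratio of miR-10a to miR-10b (left pair of panels) and of miR-196a to miR-196b (right pair) on each array, from background-subtracted intensity (no offset) and after the offset of 50, AA left of control. Points are arrays with their replicate number, and bars are the mean and SD of 3 arrays. The miR-196 ratio separates the groups without the offset (log2 difference 0.36) and not with it (0.026), while the miR-10 ratio spreads widely in both groups.

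Replicates were farther apart for the miR-10 probes than for the miR-196 probes. The SD of log2 scaled intensity within groups was 0.40 for miR-10a and 0.29 for miR-10b, against 0.12 for miR-196a and 0.11 for miR-196b, and the median of the 503 probes was 0.23. Spread depends on brightness, so each miRNA was also set beside the probes whose mean intensity was within 2-fold of its own. For miR-10a 95.0% of 139 such probes had a smaller SD, and for miR-10b 89.8% of 118. For miR-196a it was 8.61% of 209 probes, and for miR-196b 16.8% of 107. The miR-10 probes thus varied more between replicates than most probes of like brightness and the miR-196 probes less, as a description of these 6 arrays without a test. Between miR-10a and miR-10b, r was -0.013 in normalized log2 intensity over the 6 arrays. MiR-196a and miR-196b had r = 0.33. In scaled intensity the order turned round, with r = 0.18 for miR-10a with miR-10b and r = -0.012 for miR-196a with miR-196b, so neither family's miRNAs closely followed each other. These correlations share the arrays and their scaling.

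**Figure D4:**
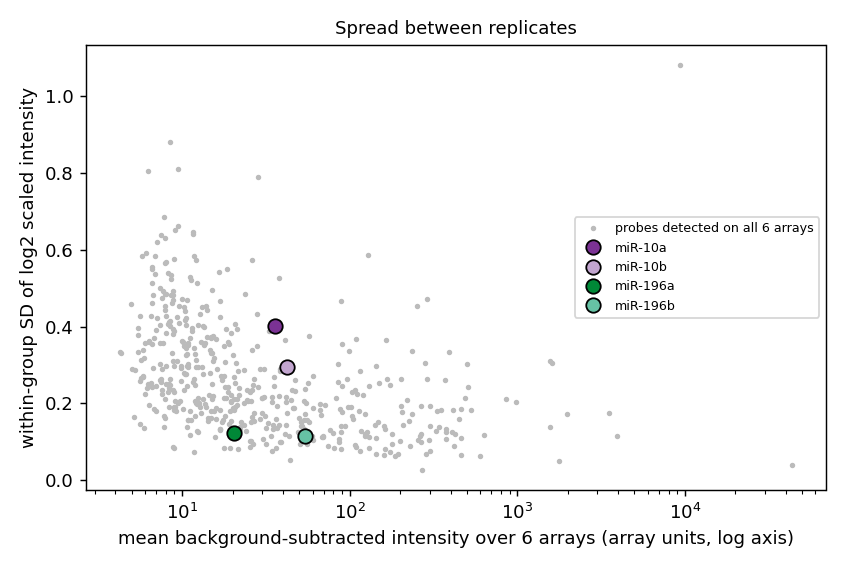
SD of log2 scaled intensity within groups against the mean background-subtracted intensity over 6 arrays (array units, log axis) for the 503 probes detected on all arrays, shown in grey, with the HOX-cluster miRNAs in colour. MiR-10a (0.40) and miR-10b (0.29) lie in the upper part of the probes of like brightness, and miR-196a (0.12) and miR-196b (0.11) in the lower part.

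The 3′ arms with a probe gave little or no signal. The 3′ arm probes miR-10a*, miR-10b* and miR-196a* were detected on none of the 6 arrays. MiR-196b* was detected on 0 AA arrays and on 2 control arrays, with background-subtracted intensities of 5.50 and 5.54, and was not tested. Its values that were not kept were 2.96, 2.42 and 1.43 on AA arrays and 2.31 on control replicate 3. The lowest value kept differed between arrays, so these detection counts do not show a loss. In scaled intensity miR-196b* had 3.36, 2.60 and 1.70 in AA samples and 8.42, 8.96 and 4.03 in control samples. All AA values were then below, as for 14.1% of the 503 probes on that scale. In normalized log2 intensity the AA values were also all below, as for 10.7% of tested probes. These values lie near the background, and the difference was not tested. MiR-615, encoded within HOXC5, gave a dim signal on both arms. MiR-615-3p had 8.62, 5.88 and 9.23 in AA samples and 5.09, 6.90 and 3.50 in control samples, in background-subtracted intensity, and the groups overlapped (limma difference 0.016, SE 0.038, adjusted p = 0.846). MiR-615-5p was kept on 2 AA and 3 control arrays, with 9.35 and 6.04 in AA samples and 2.60, 4.61 and 7.25 in control samples (limma difference -0.014, SE 0.052, adjusted p = 0.916). Its value on AA replicate 1, which was not kept but entered the limma fit, was 3.36, within the range of the control samples. Of the 10 HOX-cluster probes on the array 6 were tested and 0 passed, where 0.960% of all tested probes did. The median difference of those 6 was 0.016.

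The relatives by sequence were described in the same way, and 0 of them passed, where 0.960% of all tested probes did. Of 5 probes for miR-99, miR-100 and miR-125, which stand close to miR-10 or are transcribed with its relatives, 4 were tested, with a median difference of -0.0087. MiR-99b was the highest of them and miR-125a-5p, which is encoded in the same cluster as miR-99b, the lowest. MiR-99b had scaled intensities of 56.7, 44.1 and 57.6 in AA samples and 45.3, 42.7 and 41.9 in control samples (limma difference 0.12, SE 0.040, adjusted p = 0.235). MiR-125a-5p had 72.7, 65.4 and 68.8 in AA samples and 84.3, 75.4 and 99.6 in control samples (limma difference -0.11, SE 0.055, adjusted p = 0.382). In normalized log2 intensity every AA array lay above every control array for miR-99b, as for 8.81% of tested probes. For miR-125a-5p every AA array lay below, as for 10.7%. Of the 4, only miR-99b had an unadjusted limma p under 0.05 (0.021), which 15.0% of the tested probes had. All 9 probes of the let-7 family, which includes let-7a, were tested, with a median difference of -0.050 and 3 of 9 above 0. They ran from -0.15 for let-7c to 0.15 for let-7g (limma adjusted p = 0.585 for each), and 0 of the 9 had an unadjusted limma p under 0.05.

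The probes whose normalized log2 intensities followed each miRNA most closely over the 6 arrays were named by the highest Pearson r among 623 other tested probes. For miR-10a they were miR-4508 (r = 0.96), miR-4773 (0.95) and miR-320c (0.95), and for miR-10b miR-4260 (0.97), miR-4640-3p (0.96) and miR-130b (0.95). For miR-196a they were miR-3614-5p (0.95), miR-374c (0.92) and miR-375 (0.92), and for miR-196b miR-1281 (0.97), miR-296-3p (0.97) and miR-103a (0.96). No HOX-cluster miRNA was among the 3 probes closest to another one. These are descriptions over 6 arrays that share their normalization. Among the named probes that were detected on all 6 arrays, r in scaled intensity was 0.92 to 0.98 for miR-320c, miR-130b, miR-374c, miR-375 and miR-103a, and 0.52 for miR-4508, 0.75 for miR-1281 and 0.74 for miR-296-3p.

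The sign of the differences depended on the scaling, and miR-196b had the lowest difference of the 4 miRNAs under each scaling drawn here. That order could not change among no normalization, median scaling, the 75th percentile and the spike-ins. They hold the same values shifted by 1 constant per array. The same is true of scaled intensity and the authors' globally normalized intensity. The values scaled on the spike-ins carry the offset, which makes differences of dim probes smaller but hardly those of the bright spike-in spots. That scaling can therefore lower dim probes too far, and signs below 0 under it are not read here. Without normalization between arrays 49.6% of the tested probes passed as higher in AA samples, and so did 3 of the 4 miRNAs. MiR-10b had 0.24 (limma adjusted p = 0.0420), miR-196a 0.23 (limma adjusted p = 0.0044) and miR-196b 0.21 (limma adjusted p = 0.0109), and miR-10a had 0.27 and did not pass (limma adjusted p = 0.0567). With median scaling 13.1% of the tested probes passed as higher and 0 as lower, and among the 4 miRNAs miR-196a passed (0.16, limma adjusted p = 0.0318). The median and the 75th percentile were taken over all 1719 human probes, detected or not, after the offset. The median difference of all tested probes then stayed above 0, at 0.066 and 0.032, so treatment and remaining array brightness cannot be told apart in these calls. Under the other corrections and scalings in the plot of differences by scaling, 0 of the 4 passed, and the share of all probes that passed varied. It was 10.2% with scaling on the 75th percentile, 1.44% with the spike-ins, 1.28% with an offset of 16 and 1.12% with cyclic loess, each of 625 probes, and 0.199% of 503 probes on the authors' globally normalized intensity.

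**Figure D5:**
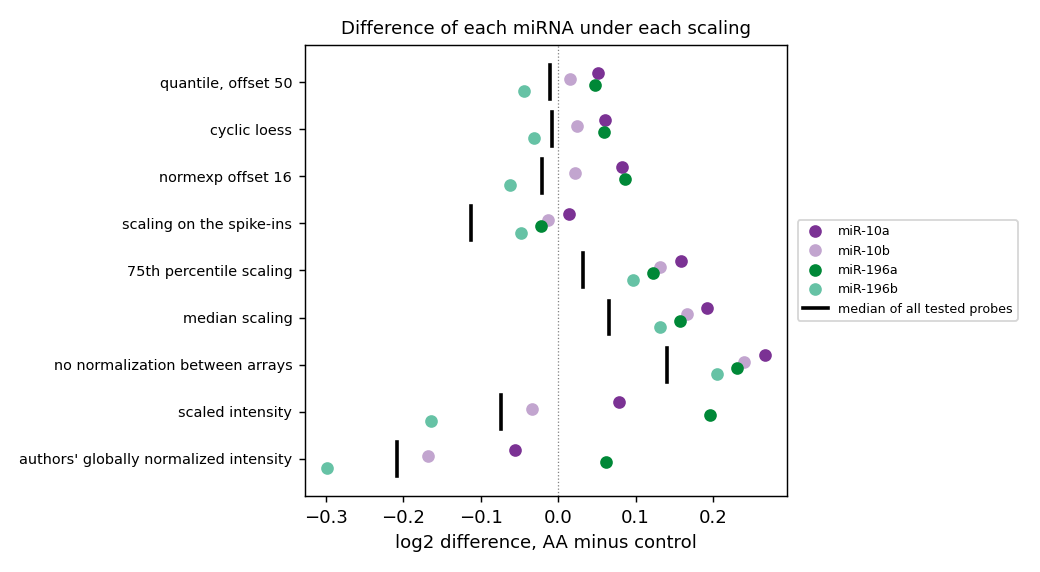
Log2 difference, AA minus control, of miR-10a, miR-10b, miR-196a and miR-196b (points) under 9 ways of correcting and scaling the arrays (rows), with the median of all probes tested in that way (black bar). The bar runs from -0.21 on the authors' globally normalized intensity, where 3 of the 4 points lie below 0, to 0.14 without normalization, where all 4 lie above 0, and miR-196b is the lowest of the points in every row.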

How the data were processed

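MiRNAs were measured on single-colour Cy5 arrays, 1 per sample, with 500 ng of RNA labelled per the labels' protocols. The deposited tables, per the file headers, hold the raw spot intensity, an intensity from which the authors subtracted 1 constant background per array, and an intensity after the authors' global normalization. The last 2 are blank where the authors kept no value, and such probes are called not detected. The scanner, its software and the probe design are not given in the sources used here.

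Raw intensities were corrected with normexp (offset 50), quantile normalized over the human probes and fitted as log2 values in limma 3.58.1 under R 4.3.3, comparing the groups without covariates. A probe was tested if every array of the AA group or of the control group detected it (625 human probes), with Benjamini-Hochberg adjustment over all of them and a threshold of 0.05. The scripts were tested on simulated data. Exact 2-sided permutation tests and other steps used Python 3.11.15 with scipy 1.17.1. For scaled intensity, the authors' background-subtracted intensity was multiplied by 1 factor per array to bring the median of the 503 probes detected everywhere to 25. The number of arrays limits the precision.

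The miRNAs, the lists and the tests were chosen with earlier results of these data known. Named were the 4 miRNAs, every detected HOX-cluster probe, the highest and lowest of each related family where none passed, and the 3 probes most correlated with each miRNA. The alternatives covered normalization, offset, filter, variance model, array weights, a replicate block and each sample left out.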

Additional observations from a re-analysis of the deposited data

How the results depend on the processing

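The calls and signs of these small differences depended on the scaling between arrays, and 6 arrays limit what can be shown. The log2 difference of miR-10a was -0.056 on the authors' normalized intensity, and -0.028 to 0.13 when 1 sample was left out. That of miR-10b was 0.24 without normalization (now past the threshold), -0.013 with scaling on the spike-ins, -0.17 on the authors' normalized intensity, -0.034 on scaled intensity, and -0.048 to 0.086 with 1 sample left out. That of miR-196a was 0.16 with median scaling and 0.23 without normalization, both past the threshold, -0.022 with the spike-ins, and 0.023 to 0.074 with 1 sample left out. That of miR-196b was 0.13 with median scaling, 0.097 with scaling on the 75th percentile, 0.21 without normalization (past the threshold), and -0.074 to 0.0048 with 1 sample left out, where the value above 0 came without control replicate 3. Over all tested probes the median difference was -0.011 after quantile normalization, 0.14 without normalization, 0.066 with median scaling, 0.032 with scaling on the 75th percentile, -0.11 with the spike-ins and -0.21 on the authors' intensity. The spike-in means were 4548 to 5403 on AA and 3737 to 4588 on control arrays. Their shift was taken from values with the offset, in which differences of dim probes are smaller. Signs below 0 with the spike-ins therefore cannot be told from an effect of the offset. For miR-196a that was the only setting below 0. Scaling on the spike-ins without the offset was not tested.

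In scaled intensity, miR-10a was -0.056 on the authors' values and -0.16 to 0.27 with 1 sample left out, miR-10b 0.49 without scaling and -0.17 to 0.16, and miR-196b 0.36 without scaling and -0.21 to -0.074. MiR-196a, 0.20 in scaled intensity, was 0.062 on the authors' values, 0.72 without scaling and 0.11 to 0.28 with 1 sample left out, the lowest without control replicate 1. The ratio of miR-10a to miR-10b was -0.080 to 0.43 with 1 sample left out, and that of miR-196a to miR-196b 0.32 to 0.41. The unscaled values, the ratios on blank and negative-control backgrounds and the correlations in scaled intensity were chosen after seeing the data.

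Of the other probes, miR-615-3p was -0.14 with the spike-ins, where the same limit from the offset applies, and -0.017 on the authors' intensity. MiR-615-5p was 0.0090 with median scaling, 0.083 without normalization, 0.016 with array weights, and -0.052 to 0.034 with 1 sample left out. With median scaling, the 75th percentile and no normalization, miR-125a-5p was 0.057, 0.023 and 0.13, and let-7c 0.16, 0.13 and 0.24. MiR-99b passed the threshold under the same 3 (0.27, 0.24 and 0.34), and let-7g without normalization (0.50).

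The count of probes past the threshold, 6 of 625, was 310 without normalization, 82 with median scaling, 64 with scaling on the 75th percentile, 1 on the authors' intensity, 10 with a trended robust variance, 11 with array weights, and 3 to 5 with 1 sample left out. The cause was not tested. Samples with the same replicate number did not deviate together (correlations of -0.14, -0.18 and 0.0077). With the replicate block 4 probes passed and 0 of the 4 miRNAs, whose limma adjusted p ran from 0.737 to 0.955.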
